A study of Mus musculus with 2 samples.

Results

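The circadian clock genes described here are Per1, Per2, Per3, Cry1, Arntl, Clock, Nr1d1, Nr1d2, Dbp and Tef, 10 of the 34844 gene names on a mouse expression array. They were chosen by name, as every probe that carries one of these gene names and is not a control spot in both scanner files, which gave 13 probes. Of the 10 genes, 8 had at least 1 probe bright enough to test, and Per3 and Cry1 had none. RNA came from pancreatic islets of control mice and of mice with a phosphorylation-resistant retinoblastoma protein, the RbΔK7 knock-in, with 2 samples of each genotype. Control RNA carried the dye Cy3 and mutant RNA the dye Cy5 on each of 2 arrays, with 15 ng of RNA used for every sample. Islets were released by collagenase, picked by hand in culture medium and frozen at once, per the labels' protocols. The series design calls the samples independently harvested. Hour of harvest, light cycle, feeding state, age, sex, strain background and the number of animals behind a sample are not given in the sources used here, and neither is whether the samples on 1 array were harvested together. The labels name a knock-in and no cell type restriction, so the allele is not stated to be limited to islet cells.

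The mammalian clock is a loop of transcription factors. Clock and Arntl (also called Bmal1) pair up and switch on genes through E-box sequences, among them the Per and Cry genes, whose proteins return to the nucleus and hold Clock and Arntl back, and the Nr1d1 and Nr1d2 genes (Rev-erb alpha and beta), whose proteins repress Arntl. Dbp and Tef are transcription factors that carry the rhythm outwards through D-box sequences, and Dbp is among the transcripts with the deepest daily swing in most tissues. In islets the clock is known to time insulin secretion. Levels of many clock transcripts vary with the hour at which tissue is taken, which is not given for these samples.

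Each array gave 1 log2 ratio of mutant over control per probe, and a probe was tested if, on both arrays, at least 1 channel was well above background, which held for 22286 of 55681 probes. In limma's test of the 2 ratios against 0, adjusted by Benjamini-Hochberg, 85 probes (0.381%) passed at 0.05, with 82 higher (0.368%) and 3 lower (0.0135%) in the mutant. Spots well above background made up 37.0% (control 1), 38.1% (control 2), 41.0% (mutant 1) and 48.2% (mutant 2) of the 59305 gene spots per array. Beta cell markers were bright in all 4 samples, with summed levels from 18.41 to 19.37 on the normalized log2 scale and all 8 tested. Of these 8, 7 went in opposite directions on the arrays, 1 was higher on both and 0 passed, with median ratios of -0.36 and 0.25. Acinar markers, from the enzyme-secreting part of the pancreas, summed to 19.81 in control 1, 20.22 in mutant 1, 21.03 in control 2 and 16.46 in mutant 2, with 11 of 13 in opposite directions on the arrays. Fibroblast and stellate cell markers were higher in the mutant on both arrays for 9 of 9 genes, of which 6 passed, with summed levels of 10.94 in control 1, 12.98 in control 2, 13.44 in mutant 1 and 14.87 in mutant 2. Of the 6 tested duct cell markers 5 were higher on both arrays and 2 passed (Spp1 and Tspan8), with summed levels of 10.81 in control 1, 11.10 in control 2, 11.67 in mutant 1 and 12.11 in mutant 2. Higher on both arrays were also 5 of 7 alpha, delta and PP cell markers (0 passed), 5 of 7 endothelial markers (Vwf passed), and 3 of 3 tested Schwann cell markers (0 passed). Of 7 tested leukocyte markers 3 were higher and 3 lower, and the 2 tested fat cell markers went opposite ways. Among all tested probes 32.4% were higher on both arrays, 25.3% lower on both and 42.3% in opposite directions. Under 5 alternative settings 0 of all tested probes passed, so none of these calls held there. Of these settings, the scanner's processed signals and the series matrix hold the same ratios. Fewer cells of a type and less RNA per cell cannot be told apart in such bulk samples. Both arrays have the same dye orientation, so dye and genotype cannot be told apart either.

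No clock gene passed the test between genotypes. Dbp had the lowest adjusted p, with both of its probes lower in the mutant on both arrays by 1.76- and 1.91-fold on average. When arrays were only centred on their medians, the tested probes had medians of 0.39 (replicate 1) and 0.84 (replicate 2), and Dbp stayed below the median probe of that setting on both. Of the 8 tested genes, 3 were lower in the mutant on both arrays (Dbp, Tef and Clock, all with a mean above 0 under median centring at the brightest probe), against 25.3% of all tested probes, 1 was higher on both (Arntl), against 32.4%, and 4 went opposite ways (Per1, Per2, Nr1d1 and Nr1d2), against 42.3%. The median ratio of the 8 genes was -0.20 on the replicate 1 array, -0.12 on the replicate 2 array and -0.095 for the mean of both, where the median mean ratio of all tested probes was 0.011. The size of the replicate difference within each genotype was larger than that between genotypes for Dbp, Tef and Nr1d1. Dbp was lower in the replicate 2 sample by more than 2-fold in control and mutant alike.

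**Figure D1:**
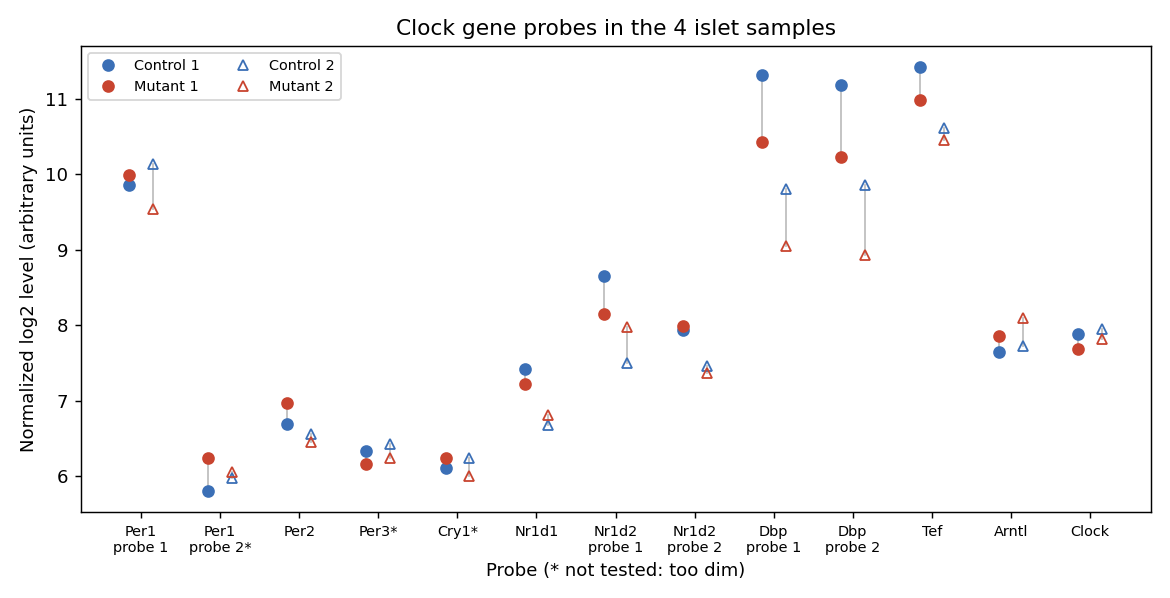
Normalized log2 level (arbitrary units) of the 13 clock gene probes in the 4 islet samples; circles are replicate 1, triangles replicate 2, blue control and red mutant, and grey lines join the samples that shared an array. Brightness cannot be compared between probes. Both Dbp probes and the Tef probe step down from control 1 to mutant 1, control 2 and mutant 2.

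Dbp and Tef belong to the PAR bZIP family of transcription factors, and Dbp is a well known target of Clock and Arntl. The windows below show which of the clock's short recognition motifs lie in the 250 bases before each RefSeq start on GRCm38.p6, read in the direction of the gene. Capitals mark a motif, the E-box CACGTG here. All windows were searched on both strands for CACGTG, the related E-prime box CACGTT, the D-boxes TTATGTAA and TTACGTAA, the RORE cores TAGGTCA and TGGGTCA, and the cAMP response element TGACGTCA. Dbp lies at chr7:45704997-45705246 on the plus strand, and Tef has 2 starts, at chr15:81802423-81802672 and chr15:81811164-81811413, also on the plus strand.
Dbp: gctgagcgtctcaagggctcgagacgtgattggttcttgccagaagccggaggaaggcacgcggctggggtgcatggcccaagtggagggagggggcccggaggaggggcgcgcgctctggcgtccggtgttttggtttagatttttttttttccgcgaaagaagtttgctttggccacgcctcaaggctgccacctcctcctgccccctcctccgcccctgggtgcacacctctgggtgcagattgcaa
Tef first start: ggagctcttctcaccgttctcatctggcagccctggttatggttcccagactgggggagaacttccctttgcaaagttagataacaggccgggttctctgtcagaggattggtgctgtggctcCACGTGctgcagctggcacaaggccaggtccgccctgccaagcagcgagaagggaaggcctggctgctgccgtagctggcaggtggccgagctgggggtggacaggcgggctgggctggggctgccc
Tef second start: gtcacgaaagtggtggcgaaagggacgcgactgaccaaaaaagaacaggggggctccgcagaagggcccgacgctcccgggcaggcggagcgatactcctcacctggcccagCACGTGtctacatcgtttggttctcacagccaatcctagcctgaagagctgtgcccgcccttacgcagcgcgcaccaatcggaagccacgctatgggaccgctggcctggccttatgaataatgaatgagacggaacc
An E-box starts 127 bases before the first Tef start and 138 bases before the second, and 6.02% of the 32851 mouse windows hold one. The Dbp window holds none of the motifs searched, which says only that these letters are not in this stretch.

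The brighter Dbp probe (NM_016974, mm9 chr7:52965322-52965381) had a level of 11.31 in control 1, 10.43 in mutant 1, 9.81 in control 2 and 9.05 in mutant 2. The other Dbp probe (mm9 chr7:52965461-52965520) read 11.18, 10.23, 9.85 and 8.93 in the same order. Within each array the mutant sample was the lower one, yet mutant 1 lay above control 2 at both probes, so the 2 genotypes overlapped. The deposited processed intensities of the brighter probe, which the scanner software had normalized for dye, were 5140 in control 1, 2710 in mutant 1, 2130 in control 2 and 1140 in mutant 2.

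As log2 ratios of mutant over control, the brighter Dbp probe gave -0.88 and -0.76, a mean of -0.82 ± 0.085 (SD, n = 2), or 1.76-fold lower, with limma adjusted p = 0.0911. The second probe gave -0.95 and -0.92, a mean of -0.94 ± 0.021 (SD, n = 2), or 1.91-fold lower, with limma adjusted p = 0.0646. Neither probe passed, although both stood near the low end of the array: 165 tested probes had a lower mean ratio than the first and 126 a lower one than the second. Before adjustment limma's p was 0.000928 for the first and 0.000421 for the second, and Dbp was the 1 clock gene of 8 under 0.05 on that scale, against 11.4% of all tested probes. The 2 probes target the same transcript in the same RNA, so they are repeat readings and not replicates. Markers of fibroblasts and stellate cells, duct cells, endothelium, Schwann cells and the other endocrine cells were mostly higher in the mutant on both arrays, and 1 immediate early gene passed as lower, as given in the counts for these lists; their part in the Dbp ratio was not tested.

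The Dbp ratio depended on the normalization. With each array centred on its median in place of loess, the brighter probe had a mean ratio of 0.046 and the second -0.077. Relative to the median of all tested probes in that setting, the brighter probe was at -0.64 and -0.50 on the 2 arrays and the second at -0.72 and -0.67. With no filter on dim probes both Dbp probes passed (limma adjusted p = 0.0243 for the brighter one and 0.0133 for the other), as did 0.638% of all probes, and over 9 alternative settings the adjusted p of the brighter probe ran from 0.0243 to 0.912. When the 4 channels were fitted as separate samples, so that the difference between replicates entered the error, limma's adjusted p was 0.604 for the brighter probe and 0.547 for the second.

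Tef (NM_017376, mm9 chr15:81657221-81657280) had levels of 11.42 in control 1, 10.98 in mutant 1, 10.61 in control 2 and 10.45 in mutant 2. This is the order of samples seen for Dbp, an order held by 6.11% of tested probes. The ratios were -0.44 and -0.16, with a mean of -0.30 ± 0.20 (SD, n = 2) and limma adjusted p = 0.517, and with median centring the mean was 0.60, where the median probe had 0.62. The third member of the family, Hlf, was dim and was named after its values were seen. Its levels were 6.91, 6.70, 6.47 and 6.45 in the same order of samples, with ratios of -0.21 and -0.016 and limma adjusted p = 0.831. The lowest levels called well above background were 6.11, 6.03, 5.99 and 5.59 in that order of samples.

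**Figure D2:**
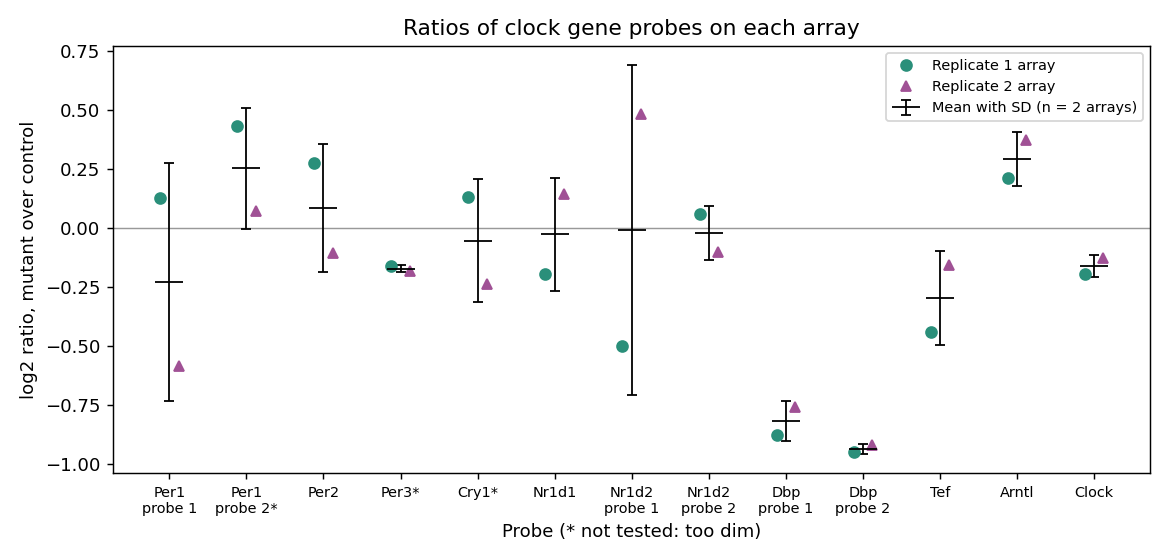
Log2 ratio of mutant over control for each clock gene probe on the replicate 1 array (green circles) and the replicate 2 array (purple triangles); black bars are the mean with the SD over 2 arrays, and asterisks mark probes too dim to test. Both Dbp probes sit between -0.95 and -0.76 on both arrays, while the brighter Nr1d2 probe spans -0.50 to 0.48.

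Nr1d1 and Nr1d2 are nuclear receptors that repress Arntl. In the 250 bases before the Nr1d1 start (chr11:98775378-98775627, minus strand, GRCm38.p6, RefSeq), the E-prime box shown in capitals begins 28 bases before the start, a motif that 3.85% of mouse windows hold.
Nr1d1: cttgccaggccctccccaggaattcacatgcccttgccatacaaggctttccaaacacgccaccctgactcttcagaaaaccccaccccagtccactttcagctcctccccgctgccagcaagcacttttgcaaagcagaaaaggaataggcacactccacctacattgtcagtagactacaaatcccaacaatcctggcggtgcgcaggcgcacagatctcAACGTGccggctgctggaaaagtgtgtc
Nr1d1 (NM_145434) was dim, with levels of 7.41 in control 1, 7.21 in mutant 1, 6.67 in control 2 and 6.81 in mutant 2. Both replicate 1 samples were above both replicate 2 samples, and the genotypes overlapped. The share of all tested probes with such a separation of replicates was not counted. Its ratios were -0.20 and 0.14, a mean of -0.028 ± 0.24 (SD, n = 2), with limma adjusted p = 0.967.

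Nr1d2 had 2 probes that gave different ratios. The brighter one carries the cDNA accession BC096461, and the files place it on mm9 chr19:40271435-40271494, whereas the RefSeq table has Nr1d2 on chromosome 14, so its match to the gene is uncertain. It read 8.65 in control 1, 8.15 in mutant 1, 7.50 in control 2 and 7.98 in mutant 2, with ratios of -0.50 and 0.48 and an average of -0.0093 ± 0.70 (SD, n = 2; limma adjusted p = 0.993). The second probe (NM_011584, mm9 chr14:19037253-19037312) read 7.93, 7.99, 7.46 and 7.36 in the same order, with ratios of 0.059 and -0.10 and an average of -0.022 ± 0.11 (SD, n = 2; limma adjusted p = 0.973). At the chromosome 14 probe both replicate 1 samples again lay above both replicate 2 samples, and the mutant and control means were close within the spread of the 2 ratios.

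Arntl and Clock are the activating pair of the loop. Arntl (NM_007489, mm9 chr7:120457261-120457320) had levels of 7.64 in control 1, 7.85 in mutant 1, 7.73 in control 2 and 8.10 in mutant 2, so both mutant samples were above both control samples. Its ratios of 0.21 and 0.37 gave a mean of 0.29 ± 0.12 (SD, n = 2), or 1.22-fold higher, with limma adjusted p = 0.502. With median centring the mean was 0.93 and limma's adjusted p was 0.0277, in a setting where 30.3% of all tested probes passed. The median probe had 0.62 there, and Arntl lay 0.31 above it. Over 9 alternative settings the adjusted p of Arntl ran from 0.0277 to 0.663. Clock (NM_007715, mm9 chr5:76641377-76641436) had levels of 7.88, 7.68, 7.95 and 7.82 in the same order of samples. Its ratios were -0.20 and -0.13, averaging -0.16 ± 0.048 (SD, n = 2; limma adjusted p = 0.718), and the mean was 0.47 with median centring, where the median probe had 0.62. Both mutant samples lay below both control samples for Clock. Such separation was found in 21.9% of tested probes in the direction of Arntl and 15.5% in that of Clock.

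The Per and Cry proteins form the repressing arm, and Per1 is also switched on rapidly by cAMP and glucocorticoid signals. Per1 and Per3 windows are shown because they hold different motifs. Per1 (chr11:69098699-69098948, plus strand) has an E-box that starts 166 bases before the start, and Per3 (chr4:151044666-151044915, minus strand) has D-boxes that start 205 and 158 bases before it; both windows are from RefSeq on GRCm38.p6 with the motifs in capitals.
Per1: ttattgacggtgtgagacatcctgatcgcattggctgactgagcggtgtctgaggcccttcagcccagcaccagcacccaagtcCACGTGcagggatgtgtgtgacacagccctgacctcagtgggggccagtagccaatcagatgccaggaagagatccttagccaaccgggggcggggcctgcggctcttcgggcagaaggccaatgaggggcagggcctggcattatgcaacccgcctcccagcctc
Per3: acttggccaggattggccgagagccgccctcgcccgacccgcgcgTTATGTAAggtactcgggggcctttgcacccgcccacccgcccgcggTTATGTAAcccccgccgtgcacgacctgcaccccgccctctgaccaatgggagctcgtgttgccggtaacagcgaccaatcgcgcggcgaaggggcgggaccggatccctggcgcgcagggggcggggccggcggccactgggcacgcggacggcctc
A D-box of either spelling lies in 0.931% of all mouse windows. Among the 9 clock genes with a window, 3 hold an E-box, namely Per1, Tef and Cry1. The second Per1 window and those of Arntl, Clock and Nr1d2 hold none of the motifs searched.

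Per1 (NM_011065, mm9 chr11:68923364-68923423) had levels of 9.85 in control 1, 9.98 in mutant 1, 10.13 in control 2 and 9.54 in mutant 2. Mutant 2 was the lowest and control 2 the highest, and the ratios of 0.13 and -0.59 had a mean of -0.23 ± 0.51 (SD, n = 2), with limma adjusted p = 0.737. A second Per1 probe, for a cDNA (AK081813), was not well above background in any channel. Acinar markers had median ratios of 0.48 and -5.11, the same signs as Per1 on the 2 arrays, and their part in the Per1 ratio was not tested.

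Per2 (NM_011066, mm9 chr1:93313046-93313105) was dim, with levels of 6.69 in control 1, 6.96 in mutant 1, 6.56 in control 2 and 6.45 in mutant 2. Its ratios of 0.28 and -0.11 averaged 0.084 ± 0.27 (SD, n = 2; limma adjusted p = 0.893), so the ratios disagreed in direction. On the scanner's processed signals the Per2 ratios were 0.58 and -0.33. With median centring the Per2 mean was 0.29, where the median probe had 0.62. Per3 (mm9 chr4:150379256-150379315) was well above background only in mutant 2. It was not tested, and no ratio is given for it. Cry1 (mm9 chr10:84594731-84594790) was not well above background in any of the 4 channels, and its ratios are likewise only drawn there.

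Differences between the replicates within a genotype had no test, since each is a difference of 2 samples hybridised to different arrays. They are given as replicate 2 minus replicate 1 on the normalized log2 scale. For all tested probes this difference had an SD of 0.323 between the control samples and 0.452 between the mutant samples. The brighter Dbp probe differed by -1.50 between the control samples (2.83-fold lower in control 2) and by -1.38 between the mutant samples (2.60-fold lower in mutant 2). The second Dbp probe differed by -1.33 and -1.30. A control difference as low as that of the brighter probe was found in 0.112% of tested probes, and a mutant difference as low as its own in 0.848%.

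Tef differed by -0.81 between the control and -0.52 between the mutant samples. Nr1d1 differed by -0.74 and -0.40, and the chromosome 14 probe of Nr1d2 by -0.47 and -0.63. Per2 differed by -0.13 and -0.51. All of these lay lower in replicate 2 of both genotypes, as Dbp did. Arntl differed by 0.083 and 0.25, and Clock by 0.070 and 0.14, all within 1 SD of the difference over all tested probes. So were the mutant difference of Nr1d1 (-0.40) and the control difference of Per2 (-0.13). The hour of harvest is not given, and its part in any of these differences was not tested. Per1 differed by 0.28 and -0.44, each also within 1 SD.

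Over the 8 tested genes, each taken at its brightest probe, 5 were lower in the replicate 2 sample of both genotypes (Dbp, Tef, Nr1d1, Nr1d2 and Per2), against 29.9% of all tested probes. Dbp was the 1 gene of 8 lower by at least 2-fold in both, against 0.126% of all tested probes. On the deposited processed signals, where the median probe differed by 0.29 between the control and 0.31 between the mutant samples, the brighter Dbp probe still differed by -1.27 and -1.25. On that scale Tef differed by -0.55 and -0.32, while Arntl differed by 0.54 and 0.70.

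**Figure D3:**
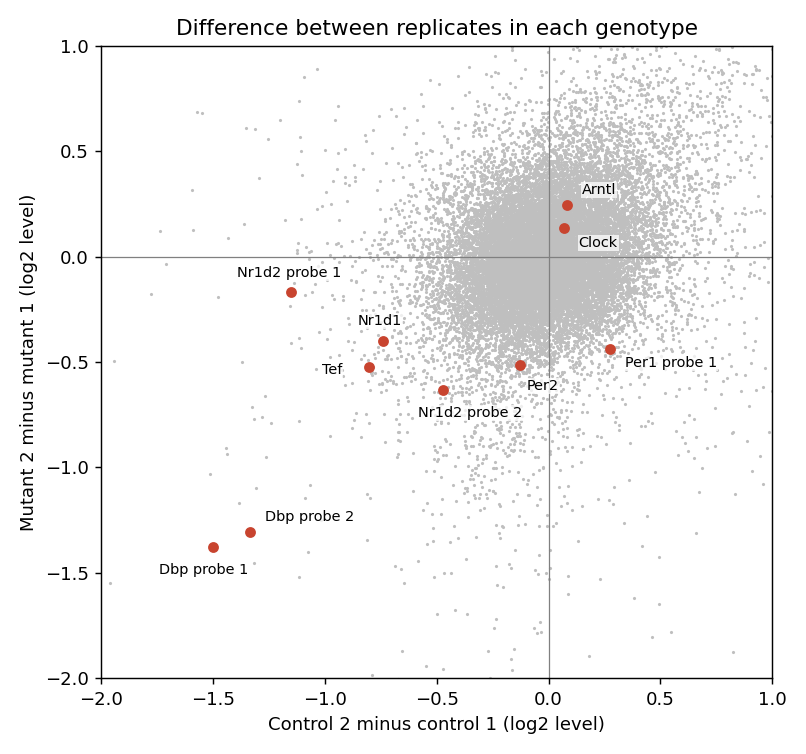
Difference in normalized log2 level between the control samples (x axis, control 2 minus control 1) and between the mutant samples (y axis, mutant 2 minus mutant 1) for tested probes (grey) and the 10 tested clock gene probes (red); 503 tested probes lie outside the axes. Both Dbp probes sit at the low end of both axes, between -1.50 and -1.30, and Arntl and Clock lie just above 0 on both.

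Values of 2 other gene lists, of genes known to respond to handling or to hormones, are given beside these differences. Of 25 immediate early genes, which rise within minutes of stimulation or tissue dissociation, 19 were tested, and their median difference between replicates was -0.79 between the control samples and -0.49 between the mutant samples. Of the 19, 16 were lower in replicate 2 of both genotypes, against 29.9% of all tested probes, and Fos differed by -2.90 and -4.29. Between genotypes 9 of the 19 were lower and 5 higher in the mutant on both arrays, against 25.3% and 32.4% of all tested probes. Among the 19 genes 1 passed, where 0.381% of all tested probes did: Egr1, at -1.13 and -1.39 (limma adjusted p = 0.0446). That call held in 3 of 9 alternative settings, over which the adjusted p ran from 0.00664 to 0.789. Among the 9, the scanner's processed signals and the series matrix hold the same ratios, and the call failed in both. With median centring the mean was -0.49 (limma adjusted p = 0.223). Ratios were -0.93 and -2.33 for Fos (limma adjusted p = 0.138) and, for the growth inhibitor Btg2, -0.76 and -1.17 (limma adjusted p = 0.0892). The part of this response in the Dbp and Tef values was not tested.

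Of 11 glucocorticoid response genes, all tested, 5 were lower and 2 higher in the mutant on both arrays and 0 passed. The shares of all tested probes were 25.3% lower, 32.4% higher and 0.381% passing. The median difference of these 11 genes between replicates was 0.10 between the control samples and -0.38 between the mutant samples. Ddit4, an inhibitor of mTOR signalling, was at -0.88 and -1.26 (limma adjusted p = 0.0682). The metallothionein genes Mt1 and Mt2 had ratios of -0.054 and -1.66, and of -0.34 and -2.04. Tsc22d3, a standard glucocorticoid target named after its values were seen, was higher in the mutant on both arrays, at 1.06 and 0.65 (limma adjusted p = 0.122). Single genes of the list ran from -0.16 to 2.04 between the control samples and from -1.86 to 0.21 between the mutant samples, and the part of glucocorticoid response in the Dbp values was not tested.

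The wider clock machinery was read from a list of 28 other core and accessory genes, of which 26 had a probe of that name and 23 were tested. On both arrays 11 were higher in the mutant and 2 lower, and 10 went opposite ways, against 32.4%, 25.3% and 42.3% of all tested probes. Of the 23 genes 0 passed, against 0.381% of all tested probes. Their median ratios were 0.066 and 0.21. Timeless had ratios of 0.63 and 1.22, which averaged 0.92 ± 0.42 (SD, n = 2; limma adjusted p = 0.138). Tipin had ratios of 0.63 and 0.71, which averaged 0.67 ± 0.059 (SD, n = 2; limma adjusted p = 0.144). The proteins of these 2 genes bind each other and are known mainly for protecting DNA replication forks. Ccrn4l, which encodes the rhythmic enzyme nocturnin, had ratios of 0.17 and 0.65 at its brighter probe (limma adjusted p = 0.437), and 0.79 and -1.07 at the other.

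Some further genes of that list were picked out after their values were seen. Cry2, the partner of Cry1, had ratios of 0.38 and -0.93 at its brighter probe and -0.63 and -0.38 at the other, so its probes disagreed on the replicate 1 array. Bhlhe40, an E-box repressor, differed between replicates by -0.70 in the control and -0.38 in the mutant samples, with ratios of -0.043 and 0.27. Nfil3, which competes with Dbp and Tef for D-boxes, had ratios of -0.063 and 0.42, and Rora, which activates Arntl, had ratios of 0.20 and 0.30. With median centring 13 of the 23 genes passed, where 30.3% of all tested probes did.

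**Figure D4:**
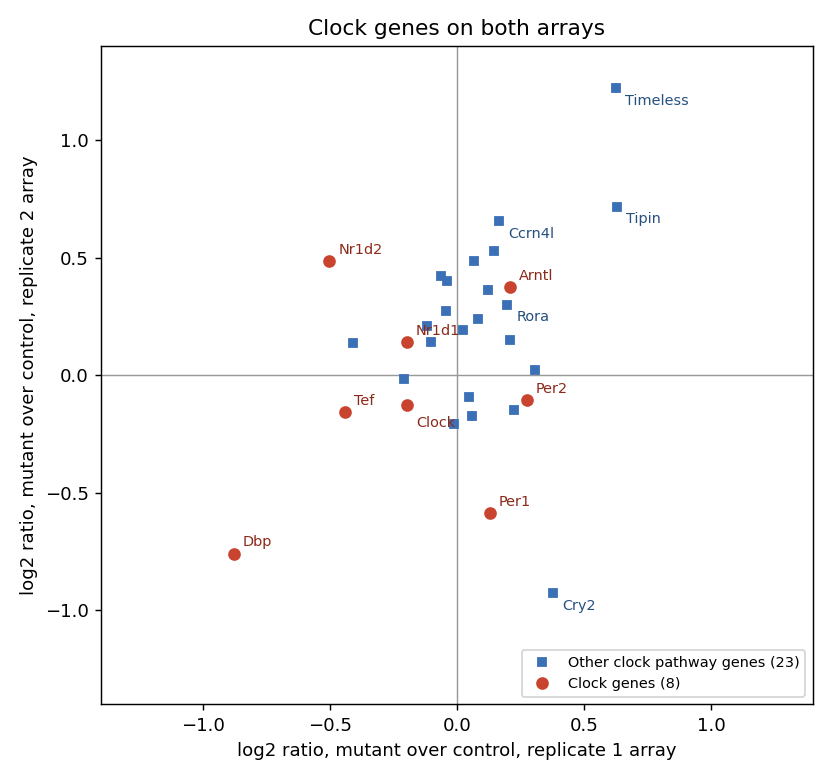
Log2 ratio of mutant over control on the replicate 1 array (x axis) against the replicate 2 array (y axis) for the 8 tested clock genes (red circles) and the 23 tested genes of the wider clock list (blue squares), each at its brightest probe. Dbp lies lowest on the x axis, at -0.88 and -0.76, and Timeless highest on the y axis, at 1.22.

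Genes downstream of the loop were read from a list of 13 genes taken as E-box or D-box targets. Motifs before the starts of these genes were not looked up, and whether they follow the clock in islets was not tested. Of the 13 genes, 12 had a tested probe. On both arrays 6 were higher and 2 lower in the mutant, and 4 went opposite ways, against 32.4%, 25.3% and 42.3% of all tested probes. Of the 12 genes 0 passed, against 0.381% of all tested probes, and the median ratios were 0.14 and 0.020. Ypel2 had ratios of 0.085 and 0.87, Leo1 of 0.33 and 0.33, and Tspan4 of 0.20 and 0.31. The median difference between replicates in this list was 0.034 for the control and 0.055 for the mutant samples. Single genes of the list ran from -0.50 to 0.90 between the control samples and from -1.06 to 0.37 between the mutant samples. In replicate 2 of both genotypes 2 of the 12 were lower, against 29.9% of all tested probes.

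**Figure D5:**
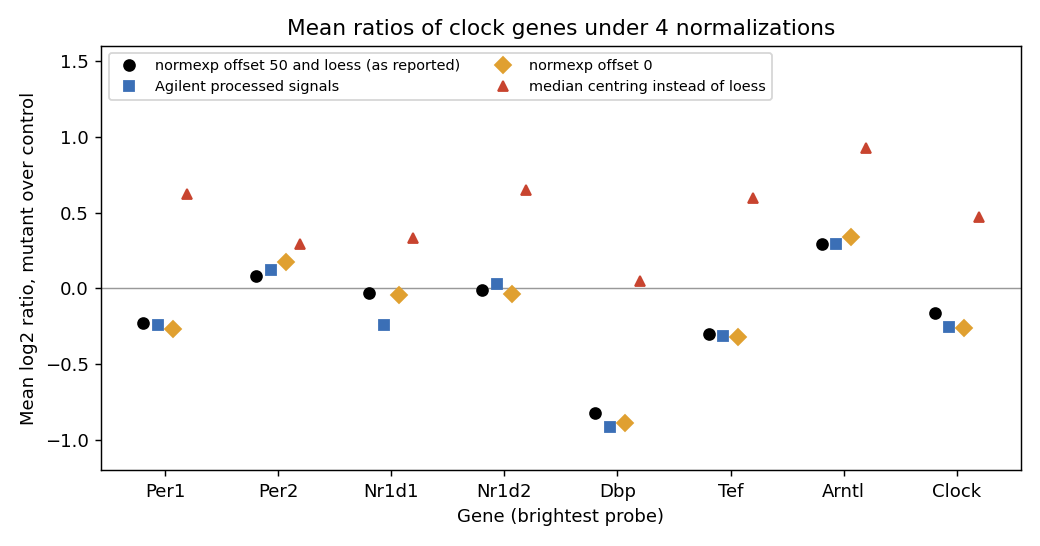
Mean log2 ratio of mutant over control of the 8 tested clock genes at their brightest probe, under the normalization used here (black circles), the scanner's processed signals (blue squares), a background offset of 0 (yellow diamonds) and median centring in place of loess (red triangles). The red triangles lie above the other symbols for every gene shown, and Dbp moves from -0.82 to 0.046.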

How the data were processed

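The clock genes and the gene lists were chosen with earlier results of these data known. Per the submitters' processing notes, Agilent Feature Extraction 10.7.3.1 read the images. The file headers give probe positions on mm9. For every spot and channel the authors deposited intensity values: a mean signal, a median local background and a processed signal that the software had corrected for background and dye. They also deposited log10 ratios of the red (mutant) to the green (control) processed signal, and the authors' series matrix held the same log10 ratios (largest difference 0 and 0, column medians 0 and 0).

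Mean signals were background-corrected with limma 3.58.1 in R 4.3.3 (normexp, offset 50), and log2 ratios were normalized within arrays by loess (span 0.3, control spots at weight 0). The offset draws ratios of dim probes towards 0, and loess assumes that most probes are alike in both channels. On each array 4 non-uniform gene spots were left out, and 0 were saturated. Levels per channel came from Aquantile normalization between arrays. Each probe's 2 ratios were tested against 0, two-sided, by lmFit and eBayes (1 residual degree of freedom, prior 4.90) and Benjamini-Hochberg adjustment over 22286 probes, and the step was tested on simulated data. The number of arrays limits the precision. Both arrays may share a slide, so slide cannot be a term. A gene was represented by its brightest tested probe. Of the wider lists, genes that passed were named, with the 3 of largest mean ratio among those of 1 sign on both arrays. Of the 13 probes, 11 matched the RefSeq table by accession, all to the same symbol. Exon and UTR positions were not analysed here. Alternatives were the scanner's processed signals, an offset of 0, median centring, other filters, another prior, separate channels, the series matrix and each replicate left out. The processed signals and the series matrix gave the same ratios, so they amount to 1 fit. Fits without the acinar marker genes, the chromosome 14 probe of Nr1d2 and levels from processed signals were added after seeing the data.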

Additional observations from a re-analysis of the deposited data

How the results depend on the processing

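With 1 residual degree of freedom a probe's spread rests mainly on the prior, and leaving out a replicate leaves a value with no test. The ratio within an array pairs mutant and control, and the fit of separate channels is the one in which the replicates' difference enters the error. Of all tested probes 85 passed. That count was 0 with the scanner's processed signals, an offset of 0, the trended and robust prior, the series matrix and separate channels. It was 355 of 55673 probes with no filter and 6749 of 22286 with median centring. At an unadjusted p under 0.05 the counts were 2531, and 5107 with no filter and 10597 with median centring. The count of clock genes that passed was 0. It was 1 with no filter (Dbp, -0.82, limma adjusted p = 0.0243), where 0.638% of all probes passed. With median centring it was 1 (Arntl, 0.93, limma adjusted p = 0.0277), where 30.3% of all tested probes passed. The count of the wider clock list was 0, and 13 of 23 with median centring, against the same 30.3%. The median ratio of the 8 genes, -0.095, was -0.24 with the processed signals and the series matrix, -0.15 with an offset of 0, 0.54 with median centring, and -0.20 to -0.12 with a replicate left out.

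Median centring put the median mean ratio of all tested probes at 0.62, and it turned the sign of the mean for Clock (0.47), Dbp (0.046), Nr1d1 (0.33), Nr1d2 (0.65), Per1 (0.62) and Tef (0.60). Relative to that median Dbp was at -0.58, Nr1d1 at -0.29, Clock at -0.15, Tef at -0.023, Per1 at 0.0027 and Nr1d2 at 0.030. Of the genes that kept their sign, Arntl was at 0.31 and Per2 at -0.33. The processed signals and series matrix turned that of Nr1d2 (0.028). The cause was not tested. With a replicate left out the remaining ratio ranged from -0.20 to 0.14 for Nr1d1, -0.50 to 0.48 for Nr1d2, -0.11 to 0.28 for Per2 and -0.59 to 0.13 for Per1; the value of opposite sign to the mean came without replicate 1 for the first 3 and without replicate 2 for Per1. On the processed signals the replicate differences of Arntl were 0.54 and 0.70, that of Clock between the control samples 0.44 and that of Nr1d1 between them -1.22. All were further from 0 than on the Aquantile levels. The median tested probe itself differed by 0.29 between the control and 0.31 between the mutant samples on the processed signals.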

Other observations

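Genes of the heat shock and cold response gave values that differed by gene. Of 9 such genes 8 were tested, 2 were higher and 3 lower in the mutant on both arrays, and 0 passed. The shares of all tested probes were 32.4% higher, 25.3% lower and 0.381% passing. Hspa1a, the inducible heat shock protein, had levels of 7.89 in control 1, 7.19 in mutant 1, 6.62 in control 2 and 6.24 in mutant 2, the order of samples seen for Dbp and Tef. Dnajb1, its co-chaperone, differed between replicates by -0.79 in the control and -0.55 in the mutant samples, with ratios of -0.45 and -0.21. The order of the Hspa1a levels, held by 6.11% of tested probes, was also that of Dnajb1. Among the immediate early genes it was that of Fos, Jun, Junb, Jund, Egr1, Ier2, Nr4a2, Btg2 and Arc. Hspb1, a small heat shock protein, was the other way round, with levels of 9.99, 10.48, 10.79 and 11.28. Hspa1a, Dnajb1 and Hspb1 did not pass between genotypes (limma adjusted p = 0.263, 0.460 and 0.261).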
